A study of Rattus norvegicus with 5 samples.

Results

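C5F, N1, C6 and L2 are 4 rat hepatocellular carcinoma lines, and the comparison sets C5F and N1 against C6 and L2. The lines were chosen by name, not by a measured value, and make up 4 of the 5 samples of the study; the fifth is a liver. C5F and C6 are described as low-metastatic and N1 and L2 as high-metastatic, so each pair holds 1 line of each class and the contrast is balanced over metastatic ability. All 4 came from liver tumours of male F344 rats aged 31 weeks that had been given the hepatocarcinogens N-nitrosomorpholine and diethylnitrosamine, so this exposure is shared by both pairs. The liver came from a male SD rat aged 50 weeks. Each line gave 1 RNA sample, extracted with ISOGEN and hybridised to 1 slide, so the replicates of a pair are 2 different lines and p-values measure the spread between lines.

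Carcinomas raised by the same carcinogens can differ in ways other than their spread, such as oxygen sensing, lipid handling, the matrix they secrete and the signals they answer. Cells answer low oxygen through the hypoxia-inducible factors, whose stability is set by prolyl hydroxylases of the Egln family. These factors bind short DNA motifs, often with the core ACGTG, at genes for glycolysis and for curbing mitochondrial use of pyruvate. Epithelial cells in liver and bile ducts rest on laminins, type IV collagens and nidogens of the basement membrane. Hepatocytes are known for their secreted plasma proteins and for bile acid and fatty acid metabolism.

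The arrays were single-colour CodeLink slides with 33849 discovery probes, of which 32.7% to 39.2% were called above background in the lines and 30.6% in liver. The share was 39.2% in C5F, 32.7% in N1, 34.3% in C6 and 36.0% in L2, so it did not order the lines by pair. Median raw signals of the fiducial control spots lay between 452 and 478 on the 5 arrays. Values below are log2 of the quantile-normalised intensity, on which signals were floored at 1.34, and a value at this floor means only that the spot was near background. Levels of different probes cannot be set against each other. Albumin (Alb), the main hepatocyte plasma protein, was at the floor in all 4 lines and at 11.47 in liver, whereas the epithelial keratin Krt8 was above background at 9.42 in C5F, 10.16 in N1, 9.36 in C6 and 9.03 in L2. The plasma carriers Ttr and Tf were above background in C5F alone among the lines. In bulk RNA, fewer cells of a type and less RNA per cell cannot be told apart.

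No probe passed the test between the pairs. Of 13741 probes tested with limma, 0 (0%) had an adjusted p under 0.05. The lowest adjusted p was 0.663, shared by probes for Fkbp10, Retsat and Emb. Without adjustment, 722 probes (5.25%) had p under 0.05, of which 401 were higher in C5F and N1 and 321 higher in C6 and L2. The differences below are therefore a description of these 4 arrays, and none passed the test after adjustment.

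Counts of widely separated probes were small. Of 9352 probes with usable spots in all 4 lines, 112 (1.2%) had both C5F and N1 at least 2-fold above both C6 and L2, and 106 (1.13%) were apart by as much the other way. After dividing each array by the median signal of above-background probes these were 164 and 87, and with the deposited normalized intensity 89 and 128. Among named genes with 1 probe each, 73 of 4966 (1.47%) were at least 2-fold apart with C5F and N1 higher and 56 (1.13%) with C6 and L2 higher. The pairs did not overlap, at any distance, for 1040 genes (20.9%) with C5F and N1 higher and 621 (12.5%) with C6 and L2 higher. These shares are the background for the counts in gene lists below. The median difference over the 9352 probes was 0.043. It was 0.19 under scaling to the probes above background and -0.095 with the deposited normalized intensity, so the smaller list differences move by that much with the scaling.

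The counts rest on all 4 lines. With 1 line left out, which asks for agreement of only 3 arrays, the probes at least 2-fold apart were 355 and 306 without C5F, 278 and 462 without N1, 518 and 355 without C6, and 296 and 231 without L2, in the same order of direction. The share of genes without overlap was also larger: with C5F and N1 higher it was 40.3% without C5F, 35.2% without N1, 42.6% without C6 and 33.4% without L2. With C6 and L2 higher it was 24.4%, 28.4%, 27.2% and 29.9% in that order. These shares also depend on the scaling: they were 30.7% and 6.77% under scaling to the probes above background, 11.2% and 18.3% with the deposited normalized intensity, and 18.3% and 14.9% with irregular spots kept. Folds of single genes rest on few lines as well: on the log2 scale the difference ran from 2.42 to 4.49 for Tspan8, from -2.75 to -4.54 for Uchl1, from -2.03 to -6.56 for Htra1 and from 3.10 to 8.70 for Plac8 when each line was left out, against 1.18 to 1.22 for Pgk1.

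The low-metastatic and the high-metastatic lines contributed largely different differences to the contrast. Across probes, the difference C5F minus C6, which compares the low-metastatic lines, had r = 0.12 (Spearman 0.12) with the difference N1 minus L2, which compares the high-metastatic lines. Over the 5326 probes above background in all 4 lines r was 0.17 (Spearman 0.14). The points are probes on the same 4 arrays and not independent, and the values are a description. Levels correlated at 0.891 between C5F and N1 and 0.898 between C6 and L2, against 0.904 between C5F and C6, 0.889 between N1 and L2, 0.856 between C5F and L2 and 0.907 between N1 and C6. The within-pair values lay inside the range of those between pairs.

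**Figure D1:**
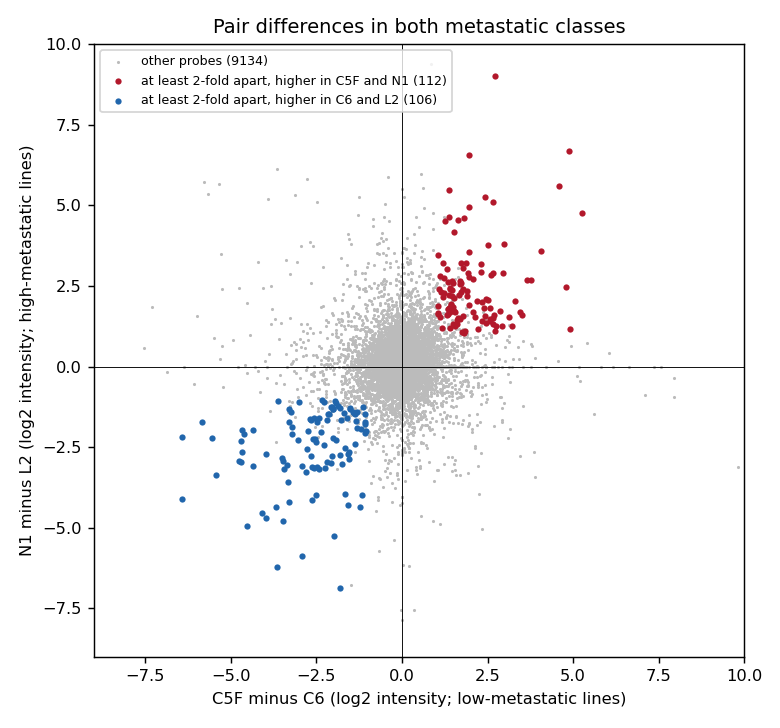
Each point is 1 of 9352 probes, with the log2 difference C5F minus C6 on the horizontal axis and N1 minus L2 on the vertical axis; red and blue mark probes at least 2-fold apart. The cloud is nearly round, with r = 0.12, and the 112 red and 106 blue probes lie in opposite corners because of how they were chosen.

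Genes of the hypoxia response lay mostly higher in C5F and N1. Of 23 genes on the list, 21 passed the filter on dim probes and 13 had usable spots in all 4 lines. In 8 of these 13 both C5F and N1 lay above both C6 and L2, beside 20.9% over all genes, and in 0 the other way, beside 12.5%. The median difference over the 13 was 0.54, beside 0.076 over all named genes. None of the 13 passed the test. The count was 11 of 13 under scaling to the probes above background, beside 30.7% over all genes, 6 of 13 with the deposited normalized intensity, beside 11.2%, and 13 of 21 when irregular spots were kept, beside 18.3%. It was 11 of 12 without C5F, 8 of 12 without N1, 10 of 13 without C6 and 9 of 13 without L2, beside 40.3%, 35.2%, 42.6% and 33.4%.

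Ankrd37 and Pdk1 held the most copies of the core motif among the hypoxia genes with a promoter window. Ldha is a glycolysis gene, and motif copies were not ranked over the glycolysis list. The sequences of these 3 genes are RefSeq promoter windows on assembly GRCr8, 5′ to 3′, with ACGTG on either strand in capitals. Each runs from 250 bases before to 50 after the start of transcription. The windows are chr16:53001257-53001556 on the plus strand for Ankrd37, chr1:106507842-106508141 on the plus strand for Ldha and chr3:77113264-77113563 on the plus strand for Pdk1.
Ankrd37: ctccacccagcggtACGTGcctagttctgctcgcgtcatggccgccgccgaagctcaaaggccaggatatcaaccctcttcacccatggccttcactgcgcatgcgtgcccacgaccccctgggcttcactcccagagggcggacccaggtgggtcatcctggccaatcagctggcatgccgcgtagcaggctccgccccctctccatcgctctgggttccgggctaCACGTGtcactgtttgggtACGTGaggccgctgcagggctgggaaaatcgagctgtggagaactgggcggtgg
Ldha: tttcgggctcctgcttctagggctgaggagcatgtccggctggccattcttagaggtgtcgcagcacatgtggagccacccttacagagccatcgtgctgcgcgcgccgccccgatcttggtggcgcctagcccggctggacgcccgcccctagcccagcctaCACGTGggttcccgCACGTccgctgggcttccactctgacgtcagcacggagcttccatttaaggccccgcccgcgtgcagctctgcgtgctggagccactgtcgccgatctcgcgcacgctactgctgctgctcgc
Pdk1: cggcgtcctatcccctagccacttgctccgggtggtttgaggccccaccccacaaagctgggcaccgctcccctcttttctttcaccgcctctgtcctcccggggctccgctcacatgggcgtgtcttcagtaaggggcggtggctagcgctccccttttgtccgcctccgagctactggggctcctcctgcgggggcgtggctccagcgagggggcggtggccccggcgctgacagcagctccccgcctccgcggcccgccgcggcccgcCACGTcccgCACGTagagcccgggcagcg
The palindrome CACGTG, which is also the E-box bound by other factors, holds ACGTG on both strands and counts as 2 matches. Ankrd37 had 4 matches, Ldha 3 and Pdk1 2. The motif was present in 4 of the 6 higher-in-C5F-and-N1 hypoxia genes with a window in the table and in 3 of the 5 hypoxia genes whose pairs overlapped, beside 19.3% of all 33469 windows. A match is a run of letters and not a measured binding site. Only ACGTG was searched, so sites with another core were not counted.

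Among the feedback and signal genes of this response, Ankrd37, a hypoxia-induced ankyrin repeat gene, was at 5.38 in C5F, 6.23 in N1, 4.32 in C6 and 4.39 in L2. C6 and L2 differed from each other by less than 0.1, and both C5F and N1 lay about 1 log2 unit or more above them. The difference was 1.45 ± 0.37 (SE, 2 arrays a side), a 2.73-fold difference with an adjusted p of 0.914. Adm, which encodes the vasodilator peptide adrenomedullin, was at 4.87 in C5F and 4.39 in N1 and near background in C6 and L2, at least 2.16-fold higher. The oxygen-sensing prolyl hydroxylase Egln1 was at 8.76 in both C5F and N1, 8.20 in C6 and 7.24 in L2. Its relative Egln3 was at 6.85, 6.76, 6.51 and 6.50 in the same order, a gap of 0.25 that held at 0.24 on a second probe. Both hydroxylases are themselves induced by the factors that they mark for breakdown.

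Ndrg1, a stress-induced cytoplasmic gene, was at 9.61 in C5F, 10.98 in N1, 9.08 in C6 and 9.06 in L2. Pdk1, the kinase that shuts pyruvate out of the mitochondrion, was at 4.75 in C5F, 4.87 in N1, 4.03 in C6 and 4.02 in L2. In both genes C6 and L2 were nearly level. The Bnip3l and Mxi1 gaps were narrow, at 8.57 and 8.55 against 7.62 and 8.43 for Bnip3l, a mitophagy receptor, and 8.40 and 8.90 against 8.03 and 8.39 for Mxi1, a Myc antagonist. The pairs overlapped for Slc2a1, Vegfa, P4ha1, Kdm3a and Higd1a, so the glucose transporter and the vascular growth factor of this response did not separate the pairs. Slc2a1 was at 9.83 in C5F, 9.55 in N1, 9.70 in C6 and 9.82 in L2.

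The glycolysis list as a whole was near the background. In 4 of 15 measured genes C5F and N1 were higher, beside 20.9% over all genes, and in 1 the other way, beside 12.5%. Without C5F the count was 9 of 16, beside 40.3%, without N1 7 of 17, beside 35.2%, and without C6 9 of 18, beside 42.6%. It was 7 of 21 with irregular spots kept, beside 18.3%. Pgk1, the phosphoglycerate kinase that makes the first ATP of the pathway, was at 9.10 in C5F, 9.11 in N1, 7.92 in C6, 7.92 in L2 and 6.13 in liver. On this discovery probe the lines of each pair differed by less than 0.1. The pairs differed by 1.19 ± 0.18 (SE), a 2.28-fold difference with an adjusted p of 0.840. Ldha, lactate dehydrogenase A, was at 11.86 in C5F, 12.58 in N1, 11.42 in C6 and 11.28 in L2, and its second probe kept this order. Aldoa and Pfkl were also higher in C5F and N1, with differences of 0.84 and 0.73. Pfkp, the platelet-type phosphofructokinase, ran the other way at 7.34 in C5F, 6.37 in N1, 7.53 in C6 and 7.95 in L2.

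Control spots gave a second reading of Pgk1. The slide carries 6 further Pgk1 probes as controls, in 24 spots, none of which entered the counts above. Their median was 10.47 in C5F, 10.38 in N1, 9.28 in C6, 9.09 in L2 and 8.08 in liver. Each of the 6 probes had C5F and N1 above C6 and L2, by 0.88 to 1.37 between pair means. The spots of 1 control probe on 1 array had a median SD of 0.17. C6 and L2 were less level on some of these probes, at 9.72 and 8.95 on 1 and at 9.21 and 9.18 on another. The gap between the lower of C5F and N1 and the higher of C6 and L2 ran from 0.59 to 1.13. The spots share their RNA sample and slide, so they measure technical error and add no replicate. Control probes for hexokinase 1, Hk1, lay the other way in pair means on all 6 probes, by -0.09 to -0.65, without overlap on 3 of them. Of 6 probes for the pyruvate carboxylase gene Pc, 1 was near background in all 4 lines, and 4 of the other 5 had C5F and N1 above both C6 and L2.

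**Figure D2:**
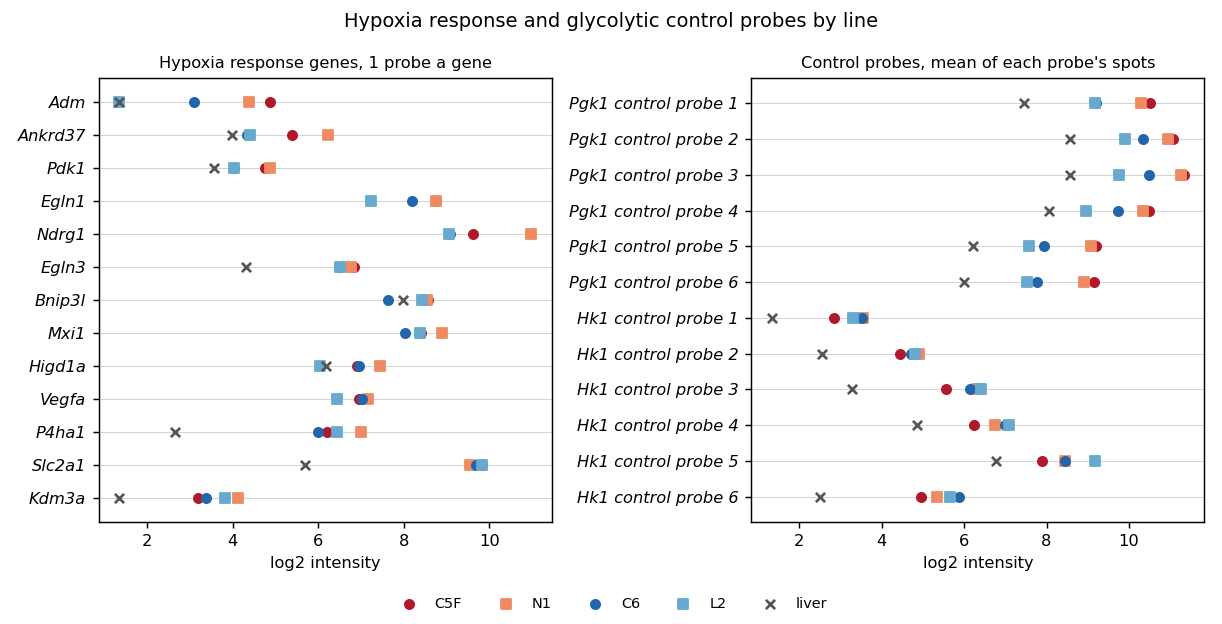
Log2 intensity in each line and in liver, at left for the 13 hypoxia response genes with usable spots in all 4 lines and at right for the Pgk1 and Hk1 control probes, each point the mean of a probe's spots on 1 array. Red and orange points lie right of both blue points for 8 of the 13 genes and for all 6 Pgk1 probes.

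Single genes of lipid, sterol and bile acid metabolism were among the widest gaps with C5F and N1 higher. The counts of genes without overlap on their lists, however, lay near the 20.9% over all genes. They were 2 of 9 for fatty acid oxidation and ketones and 2 of 10 for fatty acid synthesis. For fatty acid binding and lipoproteins the count was 2 of 13 and for bile and drug transporters 3 of 12. Fatty acid synthesis had 2 the other way, beside 12.5%. The median differences of these lists were 0.65, 0.09, 0.41 and -0.11 in that order, beside 0.076 over all named genes. Cidec, a lipid droplet fusion protein, was at 7.53 in C5F, 9.53 in N1, 6.16 in C6, 4.05 in L2 and 8.96 in liver. The pairs did not overlap, the lines within a pair differed by about 2 log2 units, and the difference was 3.42 ± 1.12 (SE). Acaa1b, a peroxisomal thiolase of fatty acid oxidation, was at 8.13 in C5F, 8.61 in N1, 6.76 in C6 and 3.97 in L2. Hsd3b7, an enzyme of bile acid synthesis, was at 5.57 in C5F, 5.92 in N1, 4.05 in C6 and 4.18 in L2, a 3.08-fold difference with little spread in either pair. Nr0b2, the bile acid-induced repressor SHP, was at 4.22 in C5F and 5.88 in N1 and near background in C6 and L2, at least 2.89-fold higher. Insig1, which holds the sterol sensor complex in the endoplasmic reticulum, was at 9.95 in C5F, 9.73 in N1, 8.51 in C6 and 7.83 in L2. On the list of cholesterol synthesis and uptake genes, 3 of 11 measured were higher in C5F and N1 and 1, Idi1, in C6 and L2. The cholesterol exporter Abcg1 lay the other way, at 6.34 in C5F, 5.58 in N1, 7.52 in C6 and 7.53 in L2.

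Of the detoxification lists, that of cytochromes and conjugation lay below the background: 1 of 17 genes was higher in C5F and N1, against 2 in C6 and L2, beside 20.9% and 12.5%. Hmox1, the haem-degrading oxygenase, was at 7.86 in C5F, 7.58 in N1, 6.44 in C6 and 5.64 in L2, a 3.20-fold difference. Ephx1, the microsomal epoxide hydrolase, was at 4.58 in C5F and 5.10 in N1 and near background in C6 and L2, at least 2.50-fold higher; a second Ephx1 probe had no usable spot in C5F and N1 and was above background in C6, at 3.94, so the bound holds for the first probe. Of 18 measured genes of the NRF2 and glutathione list, 4 were higher in C5F and N1, near the background share, and 0 in C6 and L2. Without C5F the first count was 9 of 19, beside 40.3% over all genes, and without L2 10 of 19, beside 33.4%. The cystine carrier Slc7a11, the glutathione synthesis subunit Gclm and the malic enzyme Me1 overlapped between the pairs. Selenbp1, a selenium-binding methanethiol oxidase, had the widest gap of all genes above background in the 4 lines, at 9.36 in C5F, 10.27 in N1, 6.72 in C6 and 5.18 in L2, a 14.6-fold difference (3.87 ± 0.70 SE on the log2 scale, adjusted p 0.914). On another list, of aldehyde and aldo-keto metabolism, 8 of 18 were higher in C5F and N1, beside 20.9%, and 3 in C6 and L2, beside 12.5%. Its members Akr7a2, at 10.11, 9.975, 9.003 and 9.076 in C5F, N1, C6 and L2, and Akr1b1, at 8.86, 9.96, 8.07 and 8.44, are reductases of reactive carbonyls. The count was 5 of 18 after scaling to the 75th percentile, beside 20.9% over all genes, and 5 of 18 with the deposited normalized intensity, beside 11.2%.

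Respiratory chain and ribosomal genes differed by small amounts. For oxidative phosphorylation, 9 of 18 were higher in C5F and N1, beside 20.9% over all genes, and 3 in C6 and L2, beside 12.5%. The median difference was 0.31. Cytochrome c, Cycs, was at 9.24 in C5F, 8.71 in N1, 8.07 in C6 and 8.25 in L2, whereas the complex I subunit Ndufs1 was at 9.07, 8.61, 9.57 and 9.73 in that order. Of the ribosomal protein genes, 7 of 18 were higher in C5F and N1, beside 20.9%, and 0 in C6 and L2, beside 12.5%. Their median difference was 0.15. Both counts moved with the scaling: with the deposited normalized intensity they were 5 and 3, beside 11.2% over all genes, and ribosomal genes numbered 13 under scaling to the probes above background, beside 30.7%. Irregular spots brought oxidative phosphorylation to 14 of 26, beside 18.3%. The ribosomal count was 11 of 18 without C5F and 11 of 19 without C6, beside 40.3% and 42.6%. On the list for urea synthesis and amino acid catabolism, 5 of 13 were higher in C5F and N1, beside 20.9%, and 0 in C6 and L2, beside 12.5%. The first count was 3 of 13 under scaling to the 75th percentile, beside 20.9%, or with the deposited normalized intensity, beside 11.2%. It was 9 of 13 without N1, beside 35.2%, and 9 of 15 without C6, beside 42.6%. Among the members of this list Glud1, glutamate dehydrogenase, was at 9.49, 9.03, 8.22 and 8.55 in C5F, N1, C6 and L2. Gamt, which makes creatine and stands on no list here, was at 6.27, 6.84, 4.86 and 5.15.

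Single genes of the cell surface and of vesicles were also among the widest gaps. Of the adhesion molecules, 2 of 12 were higher in C5F and N1, beside 20.9% over all genes. In C6 and L2 3 were higher, beside 12.5%. On the lysosome and cathepsin list these counts were 3 of 14 and 2, beside the same shares. Tspan8, a tetraspanin of epithelial membranes, was at 6.69 in C5F, 8.73 in N1, 4.75 in C6 and 3.79 in L2 and near background in liver, a 10.9-fold difference. Ramp1, the accessory subunit of the CGRP receptor, was at 6.618 in C5F, 7.001 in N1, 4.32 in C6 and 3.81 in L2. Among the 30 genes with the widest gaps above background in all 4 lines, it had the lowest adjusted p, 0.765, with a 6.71-fold difference. Anxa8, a calcium-dependent membrane-binding annexin, was at 7.05 in C5F, 7.38 in N1, 3.39 in C6 and 4.69 in L2. The small GTPases Rab3b, of regulated secretion, and Rab17, of epithelial trafficking, lay the same way. Rab3b was at 4.38 in C5F, 7.01 in N1, and near background in C6 and L2, at least 4.52-fold higher. Rab17 was at 6.86 in C5F, 5.54 in N1, 4.47 in C6 and 3.72 in L2. The lysosomal protease Ctsz was at 5.32, 6.12, 4.17 and 3.82 in C5F, N1, C6 and L2. The other genes with the widest gaps in this direction, above background in all 4 lines, were Tmem229b, Pbld1 and C19h1orf198, with differences of 1.94, 1.31 and 1.25.

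**Figure D3:**
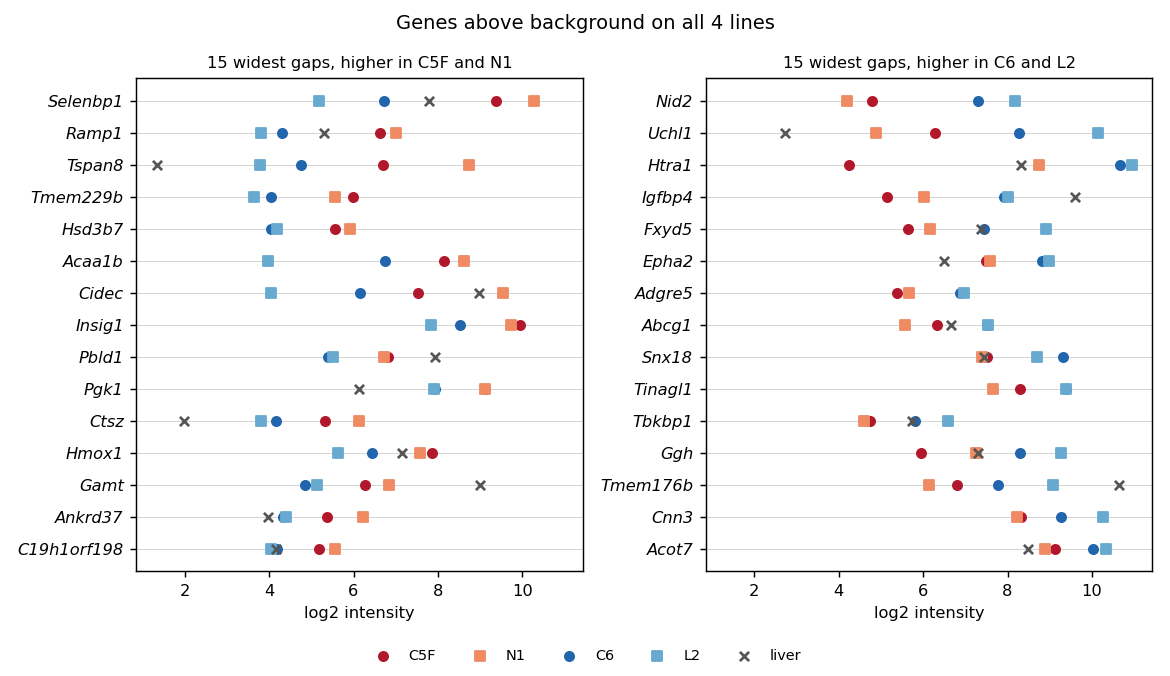
Log2 intensity in each line and in liver for genes above background on all 4 lines, the 15 widest gaps each way, in order of the gap. At left C5F and N1 lie right of C6 and L2 for every gene and at right the order is turned, as the choice of genes fixes; the distance between the lines of a pair runs from under 0.1 for Pgk1 to more than 4 log2 units between C5F and N1 for Htra1.

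Several genes were detected in only 1 pair, and a fold is then a lower bound, set against the dimmest signal that still counted as above background on those arrays. Plac8, a small cysteine-rich protein of placenta and white cells, was at 5.56 in C5F and 11.11 in N1 and near background in C6 and L2, at least 28.2-fold higher. N1 alone stood far above the rest. Fkbp10, a prolyl isomerase of the endoplasmic reticulum that folds collagen, was at 8.05 in C5F, 8.11 in N1, 2.79 in C6 and 3.35 in L2, at least 23.6-fold higher in C5F and N1. Its 2 bright arrays were nearly level, and its adjusted p of 0.663 was the lowest of all probes, shared with Retsat and Emb. Pla2g2a, a secreted phospholipase, was at 6.22 in C5F and 8.03 in N1 and at the floor in C6 and L2, at least 12.2-fold higher. Rhox5, an X-linked homeobox gene of the reproductive tract, was at 5.94 in C5F and 6.95 in N1 and at the floor in C6, L2 and liver, at least 7.61-fold higher.

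Sncg, Ifitm1, Npw and Ckmt1 completed this set, with bounds of 6.03-fold, 4.28-fold, 3.18-fold and 3.15-fold. In all 4 N1 lay above C5F by more than 2 log2 units. Ckmt1, the mitochondrial creatine kinase, was at 3.74 in C5F and 3.58 in L2, so C5F barely exceeded the dimmer pair. Ifitm1, an interferon-induced membrane protein, was brighter in liver, at 9.91, than in any line. Interferon response genes had 3 of 17 higher in C5F and N1, beside 20.9% over all genes, and 2 in C6 and L2, beside 12.5%. Both counts were near those shares.

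In C6 and L2 the higher genes included parts of the basement membrane and its attachment. Nid2, a nidogen that links laminin to type IV collagen, was at 4.791 in C5F, 4.195 in N1, 7.289 in C6 and 8.17 in L2. The gap of 2.50 was the widest in this direction among genes above background in all lines, and the difference was -3.24 ± 0.44 (SE), or 9.43-fold, with an adjusted p of 0.812. A second Nid2 probe had a difference of -4.94. Lama3, the laminin alpha 3 chain of epithelial anchorage, was near background in C5F and N1 and at 5.32 in C6 and 4.40 in L2, at least 2.87-fold higher. Col4a1, the type IV collagen alpha 1 chain, was at 3.17, 4.07, 4.65 and 5.13 in C5F, N1, C6 and L2. A second probe had the same order of pairs, and both probes were near background in C5F and N1. Tinagl1, a matricellular protein of basement membranes, was at 8.30, 7.65, 9.39 and 9.39.

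Of 9 measured collagen and matrix genes, 4 were higher in C6 and L2, beside 12.5% over all genes, and 1, Col11a1, was higher in C5F and N1. The list's median difference was 0. Col5a1, counted among the 4, overlapped on a second probe, at 4.58 in C5F, 4.035 in N1, 4.92 in C6 and 4.03 in L2. When probes had to be above background in all 4 lines the count was 2 of 4, beside 13.2% over all genes. Among matrix proteases and their inhibitors, 5 of 13 were higher in C6 and L2, beside 12.5%, and 2 in C5F and N1, beside 20.9%. Mmp3, stromelysin 1, was near background in C5F and N1 and at 5.71 in C6 and 4.63 in L2, at least 3.54-fold higher. The urokinase receptor Plaur was at 6.74, 7.45, 7.76 and 7.95 in C5F, N1, C6 and L2. The inhibitor Timp1 lay the other way, at 7.70, 8.21, 7.09 and 2.69. Under the same limit to probes above background the count of proteases was 3 of 5, beside 13.2%. Mesenchymal transition genes showed 0 and 1 of 10 in the 2 directions.

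Single regulators of growth factors outside the cell were among the genes at least 2-fold higher in C6 and L2. Htra1, a secreted serine protease that cleaves matrix and growth factor-binding proteins, was at 4.24 in C5F, 8.76 in N1, 10.66 in C6 and 10.95 in L2. C6 and L2 agreed closely, while C5F and N1 lay more than 4 log2 units apart, and the difference of -4.31 had an SE of 1.72. Igfbp4, which binds insulin-like growth factors, was at 5.15 in C5F, 6.02 in N1, 7.90 in C6 and 8.02 in L2, a 5.18-fold difference with an adjusted p of 0.863. Of 13 measured genes of the IGF axis, these 2 were at least 2-fold apart, beside 1.13% over all genes in this direction. In 1, the insulin receptor substrate Irs2, the pairs did not overlap with C5F and N1 higher, beside 20.9%. The list's median difference was -0.48. Fst, the activin-binding follistatin, was on its main probe near background in C5F and N1 and at 7.32 in C6 and 5.74 in L2, at least 9.12-fold higher. A second Fst probe, with no usable spot in L2, was near background in C5F at 2.59, above background in N1 at 3.995 and at 8.84 in C6. Inhbb, a subunit of activin B and inhibin B, was at the floor in C5F and at 4.01 in N1, 6.09 in C6 and 6.95 in L2. An activin subunit and an activin antagonist were thus both higher in C6 and L2. Over the TGF-beta and BMP list, 4 of 16 were higher in C6 and L2, beside 12.5% over all genes, and 3 in C5F and N1, beside 20.9%. Wls, which carries WNT proteins to the surface, was at the floor in C5F and N1 and at 4.26 in C6 and 7.21 in L2, at least 5.25-fold higher.

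Inflammatory genes did not all lean to the same pair. Lcn2, the siderophore-binding lipocalin of acute inflammation, was at 2.95 in C5F, at the floor in N1 and at 7.05 in C6 and 5.88 in L2, at least 8.71-fold higher in C6 and L2. Csf3, the granulocyte growth factor G-CSF, was at 3.70 in C5F, 3.81 in N1, 7.32 in C6 and 4.88 in L2, and Cxcl1, a neutrophil chemokine, was at 9.05, 8.22, 10.99 and 9.31. Tnfrsf9, the co-stimulatory receptor 4-1BB, was near background in C5F and N1 and at 5.15 in C6 and 7.17 in L2, at least 7.07-fold higher. Of 14 measured interleukin and TNF receptors, 6 were higher in C6 and L2, beside 12.5% over all genes, and 2 in C5F and N1, beside 20.9%. The list's median difference was -0.49. Il6r and Il11ra1, counted among the 6, were near background in all 4 lines on the probes used. A second Il6r probe was above background at 4.28 in C5F, 4.19 in N1 and 3.88 in L2 and not usable in C6, so the direction for Il6r is not settled. Limited to probes above background the count was 2 of 5, beside 13.2%, and it was 9 of 15 without N1, beside 28.4% over all genes. The NF-kB and inflammation list had 2 of 14 each way and the acute phase list 3 of 12 against 2. Cp, the copper-carrying ferroxidase, was at the floor in C5F and N1 and at 3.63 in C6 and 3.77 in L2, of which only L2 was above background.

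Receptors and membrane proteins higher in C6 and L2 included Epha2, an ephrin receptor tyrosine kinase, at 7.49 in C5F, 7.58 in N1, 8.81 in C6 and 8.98 in L2. The lines of each pair were close and the difference was 2.57-fold, but a second Epha2 probe differed by -0.41, with N1 at 5.32 and L2 at 5.33. Adgre5, the adhesion receptor CD97, was at 5.37, 5.66, 6.88 and 6.97 in C5F, N1, C6 and L2, and a second probe, not usable in C6, was at 4.42 in C5F, 4.25 in N1 and 5.78 in L2. Fxyd5, a modulator of the sodium pump and of cell adhesion, was at 5.64, 6.17, 7.45 and 8.91. Mall, a membrane raft protein, had a bound of 6.15-fold and Steap2, a metalloreductase, of 6.94-fold. On the axon guidance list, 4 of 8 measured were higher in C6 and L2, beside 12.5% over all genes, and 1 in C5F and N1, beside 20.9%. The C6 and L2 count was 1 of 8 under scaling to the probes above background, beside 6.77% over all genes. Of the 4, the receptors Nrp1 and Unc5b and the ligand Slit1 had differences of -0.24, -0.49 and -0.52. The fourth, the semaphorin Sema3c, was near background in C5F and at 8.33 in N1, 8.60 in C6 and 8.51 in L2, so C5F alone stood apart.

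Single genes best known from neurons and endocrine cells were also higher in C6 and L2. Uchl1, a neuronal ubiquitin hydrolase, was at 6.29 in C5F, 4.88 in N1, 8.27 in C6 and 10.13 in L2, a 12.2-fold difference. Cpe, which processes prohormones, was near background in C5F and N1 and at 3.95 in C6 and 8.76 in L2, at least 8.07-fold higher, mostly through L2. Pcp4, a calmodulin-binding peptide, was near background in C5F and N1 and at 6.28 in C6 and 6.41 in L2, at least 8.03-fold higher. The list of neuroendocrine and neuronal genes had 2 of 6 higher in each direction. Over all genes the shares were 20.9% with C5F and N1 higher and 12.5% with C6 and L2 higher. The 2 list genes higher in C6 and L2 were at least 2-fold apart, beside 1.13% over all genes. In the other direction 0 were, beside 1.47%. The list's median difference was -0.15. Smug1, a uracil-DNA glycosylase, and Fmnl1, a formin that builds actin filaments, had bounds of 5.33-fold and 5.39-fold. The actin-binding calponin Cnn3, the folate-cleaving hydrolase Ggh, the acyl-CoA thioesterase Acot7, the sorting nexin Snx18, the kinase adaptor Tbkbp1 and Tmem176b lay the same way, with differences of -1.49, -2.19, -1.18, -1.55, -1.53 and -1.95.

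**Figure D4:**
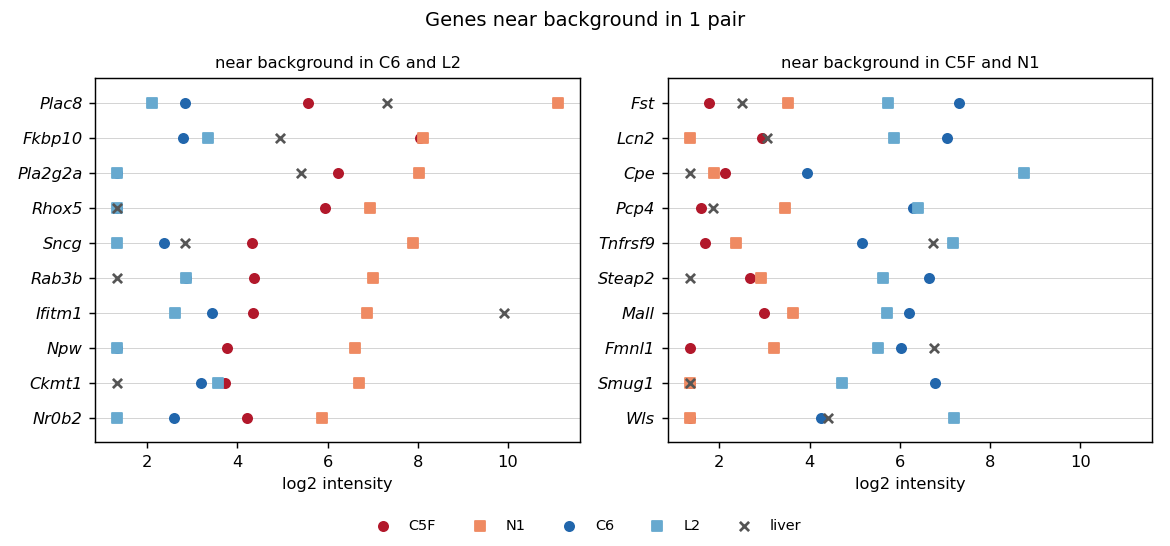
Log2 intensity in each line and in liver for the 10 largest bounded folds each way, in genes above background in both lines of 1 pair and near background in both of the other. Points at 1.34 are at the floor; at left N1 is the brightest line for every gene, and at right either C6 or L2 is.

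Among the 30 genes with the widest gaps above background in all 4 lines, the largest difference between the metastatic classes was 2.41. All 30 differed more between the pairs. The choice of genes fixes this, since without overlap the pair difference always exceeds the class difference. Of the 64 genes at least 2-fold higher in C5F and N1 with a usable liver spot, 40 had liver above the midpoint of the 2 pairs, and of the 49 at least 2-fold higher in C6 and L2, 22 had. Over all genes it was 45.1%, or 1971 of 4368. The filter kept genes above background in fewer than 2 lines only where liver was above background. That favours a bright liver spot in each of these counts, so they do not show likeness to liver. The liver is 1 sample of another strain and age, and this is a description. Markers of Kupffer and endothelial cells did not order the lines by pair. Summed signals of the 9 Kupffer cell and macrophage markers were 69.8 in C5F, 80.2 in N1, 100.1 in C6 and 72.7 in L2, and those of the 9 endothelial markers 82.5, 107.4, 92.5 and 62.5. The 7 lymphocyte markers summed to 81.0 in C5F and 65.4 in N1, against 52.1 in C6 and 48.0 in L2, with 1 or 2 of them above background in each line; their part in the differences was not tested. Vwf, the endothelial clotting protein, was 3.90 in C5F and 3.81 in N1 against 1.34 in C6 and 1.99 in L2, but above background in C5F alone and near background on all lines with a second probe. The 12 hepatocyte secreted proteins had 0 genes without overlap in either direction, beside 20.9% and 12.5% over all genes. Of the 12, 7 were above background in C5F, 2 in N1, 2 in C6 and 1 in L2. Values tied at the floor cannot separate the pairs, so the 0 is no sign of equal levels. Their summed signals were 2415 in C5F, 75.4 in N1, 78.9 in C6 and 71.7 in L2.

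**Figure D5:**
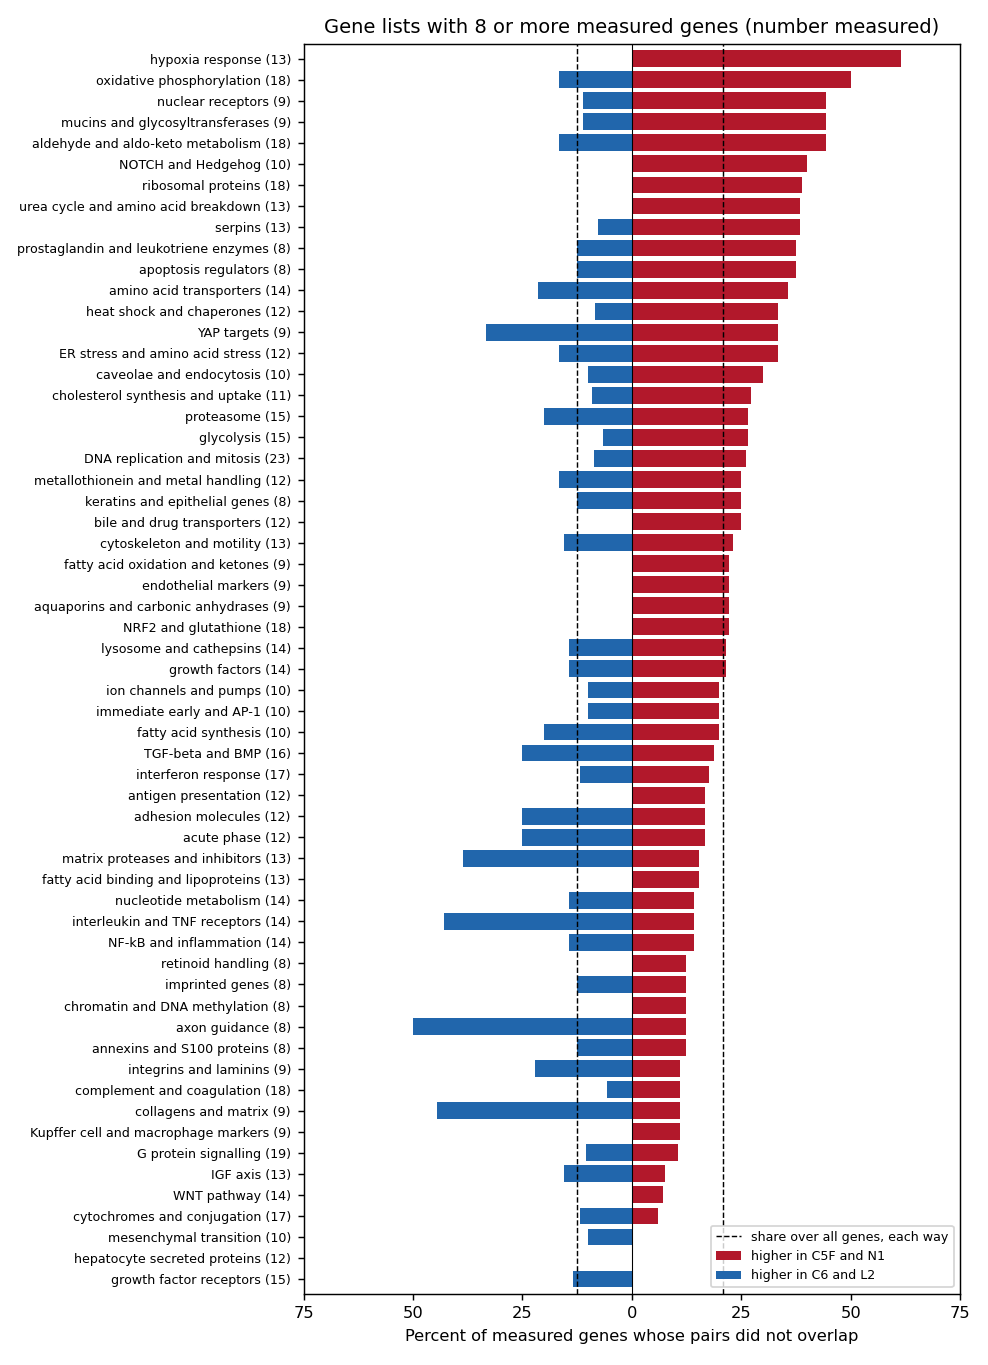
Bars give, for each of 59 lists with 8 or more measured genes, the percent of genes whose pairs did not overlap, to the right with C5F and N1 higher and to the left with C6 and L2 higher; dashed lines mark the shares over all genes, 20.9% and 12.5%. The hypoxia response has the longest bar to the right and axon guidance to the left, and lists of 8 to 23 genes give wide steps.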

How the data were processed

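Total RNA of 4 carcinoma lines and 1 liver was measured on CodeLink Rat Whole Genome slides. Scans were quantified by the authors, per the file headers, with CodeLink Expression Analysis 4.1.0.29054; the deposited raw intensity is background-subtracted, and the deposited normalized intensity is that signal divided by the array's median; the series' value table equals it (largest difference 0). Here the raw intensity was used. The 1280 control spots and all irregular, contaminated or masked spots were left out of the counts and tests, the rest was quantile normalised (limma 3.58.1, R 4.3.3), floored at a signal of 2.53, the median near-background signal, before log2 was taken. Probes had to be above background in 2 or more lines, or in liver. Control spots of 1 gene were placed on the same scale by interpolation.

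A limma model with liver, C5F and N1, and C6 and L2 as groups gave the contrast of the pairs, two-sided, with Benjamini-Hochberg adjustment (residual degrees of freedom at most 2); 2636 kept probes left no residual degree of freedom and were not tested. Each line has 1 array, which limits the precision. Names came from the platform's probe table, updated through RefSeq (GRCr8), where 12177 of 12201 gene numbers matched; 16753 discovery probes had 1 gene, 165 several and 16931 none. Each gene was represented by 1 probe, the brightest of those usable in all 4 lines where there was one. Named genes were first the 15 each way with the widest gap between pairs, among genes above background in all 4 lines. To these came the 10 each way with the largest bound, and members of 79 textbook lists at least 2-fold apart, up to 3 a list. Other list members are given as examples. Lists are described by counts, without a test. Members and lists were chosen with earlier results of these data known. The fit was tested on simulated data. With 1 array a slide, slide effects could not be fitted; statmod 1.5.0 served the robust alternative.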

Additional observations from a re-analysis of the deposited data

How the results depend on the processing

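No probe passed an adjusted p of 0.05 under the main settings or any of the 14 alternatives, in which the lowest adjusted p ran from 0.215 to 0.908 and 248 to 2170 probes had an unadjusted p under 0.05. The probes at least 2-fold apart, with C5F and N1 higher and then with C6 and L2 higher, were 112 and 106 in the report. They were 10 and 10 with an offset of 50 in place of the floor, which shrinks differences of dim probes, 269 and 247 without a filter on dim probes, and 19 and 14 among probes above background on all 4 lines. Keeping irregular spots gave 158 and 169. With 1 line left out they ran from 278 to 518 and from 231 to 462, since fewer arrays must agree. The other alternatives gave counts within 1.5 times of those reported. All 923 values of the 72 named genes under an alternative kept their direction. This was largely fixed by the choice of genes, whose pairs did not overlap on these arrays. Some alternatives also left their differences unchanged, so the kept direction is no separate evidence. Sizes moved more: the offset of 50 changed the fold of 59 genes by over 1.5 times (Ramp1 from 2.75 to 1.28 on the log2 scale, Pla2g2a from 5.79 to 1.96), and leaving out a line did so for 29 genes. The labels give no replicate numbers to pair lines by. A fit with metastatic class as a term, which sets C5F against C6 and N1 against L2, called 0 of 9352 probes with a lowest adjusted p of 0.800. With 2 lines a side the spread between lines of a pair sets the precision, and dim probes have only bounds.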

Other observations

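A few genes outside the rule for named genes are given here and were chosen after their values were seen. Msln, the mesothelial surface protein mesothelin, was at the floor in C5F, at 1.42 in N1, 5.01 in C6 and 5.78 in L2. Cdh3, the adhesion molecule P-cadherin, was at the floor in C5F, at 2.28 in N1, 4.67 in C6 and 5.86 in L2, and the prohormone convertase Pcsk5 was at 3.38, 3.61, 6.02 and 7.76 in C5F, N1, C6 and L2. The zinc-finger transcription factor Plag1 was at 1.43, 1.64, 4.25 and 4.92 in that order. In the other direction, Mogat2, which acylates monoacylglycerol, was at 6.09 in C5F, 6.10 in N1, 4.37 in C6 and 3.51 in L2, and Retsat, a retinol saturase, was at 3.94 and 4.17 in C5F and N1 and at the floor in C6 and L2. The proteins of these genes act at the cell surface, in prohormone cleavage, in transcription and in lipid and retinoid metabolism, and none passed the test.

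By chromosome, the median difference between the pairs was highest on X, at 0.28 over 142 probes, and ran from -0.047 on chromosome 2 to 0.15 on chromosome 6 over the others. On X the median was 0.082 for C5F minus C6 and 0.49 for N1 minus L2, so most of it lay in the high-metastatic lines. Pgk1 and Rhox5, described in the report, are X-linked. The chromosome medians were not tested.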
